A study of Mus musculus with 6 samples.

Results

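The collagen genes of mouse peripheral nerve were followed through the comparison of wild-type and Actl6a conditional knockout sciatic nerve at postnatal day 3. The genes were all rows of the count table whose symbol had the form Col, a number, a and a number, which gave 44 of 54838 rows. The 3 wild-type libraries (WT) came from mice with the genotype WT. The 3 conditional knockout libraries (cKO) came from mice of the genotype CnpCre Actl6afl/fl, in which Cre is driven by Cnp, a gene active in myelinating glia, and the target is Actl6a, which encodes an actin-like subunit of the BAF chromatin remodelling complex. Both groups are given as strain C57 Bl. The labels do not say how many nerves went into a library, nor whether WT mice carried the floxed allele or Cre. The p-values therefore rest on differences among the 6 libraries, some of which may be technical.

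Collagens are extracellular proteins built from 3 alpha chains wound into a triple helix, and each gene encodes a chain. Fibrillar collagens form the banded fibrils of the endoneurium and epineurium, and basement membrane collagens form or border the sheets that wrap every Schwann cell. FACIT collagens (fibril-associated collagens with interrupted triple helices) sit on the surface of fibrils, and the remaining collagens form beaded filaments, short-chain networks, anchoring fibrils or transmembrane proteins. In nerve, fibroblasts, perineurial cells and Schwann cells all make collagen, and contact with a basement membrane accompanies myelination.

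Total counts ran from 31404107 to 36760296 per library. Markers of the Schwann cell lineage, which carry the labelled tissue, summed to 34230 to 38450 CPM (counts scaled to library size with TMM factors) in WT and to 4353 to 8374 CPM in cKO. Actl6a itself was at 48.6, 53.3 and 46.2 CPM in WT and at 42.4, 47.6 and 41.5 CPM in cKO, a log2 fold change of -0.17 that was not called (adjusted p = 0.243). The groups overlapped for this gene, so whole-nerve counts do not show its loss, and Cnp fell by 2.40 on the log2 scale (adjusted p = 0.00146). The library of cKO replicate 2 stood apart: skeletal muscle markers took 6.63% of its counts, against 0.403% to 0.622% in the other 5. Collagen calls and the counts called in the pathway lists are therefore given with all 6 libraries and, where they change, without that library. Marker lists, medians and sums over part of the collagens are given with all 6 only.

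All 44 collagen genes passed the low-count filter, and 5 were called at an adjusted p under 0.05, or 11.4% of them. Over all 18775 genes tested, 18.8% were called, so the share among collagens was not above this background. Of the 5, 4 fell: the type IX chains Col9a3 and Col9a2, Col28a1 and Col15a1. The gene that rose was Col6a6, a chain of type VI collagen. Over all genes 10.3% were called lower and 8.55% higher. The median log2 fold change was -0.002 over the collagens and 0.044 over all genes tested. At an unadjusted p under 0.05 there were 17 collagens, against 34.4% of all genes.

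The estimated change lay within 1.5-fold either way for 28 of 44 collagens, against 71.8% of all genes, and the whole 95% interval lay within that band for 16, against 36.1% of all genes. The CPM of the 2 groups did not overlap for 16 collagens, against 42.7% of all genes. In 11 of them cKO lay above WT (21% of all genes) and in 5 below (21.7%). Among fibrillar collagens 0 of 11 were called, among basement membrane collagens 1 of 8, among FACITs 2 of 9 and among the others 2 of 16. The median log2 fold changes of these classes were -0.007, -0.116, 0.239 and 0.274.

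**Figure D1:**
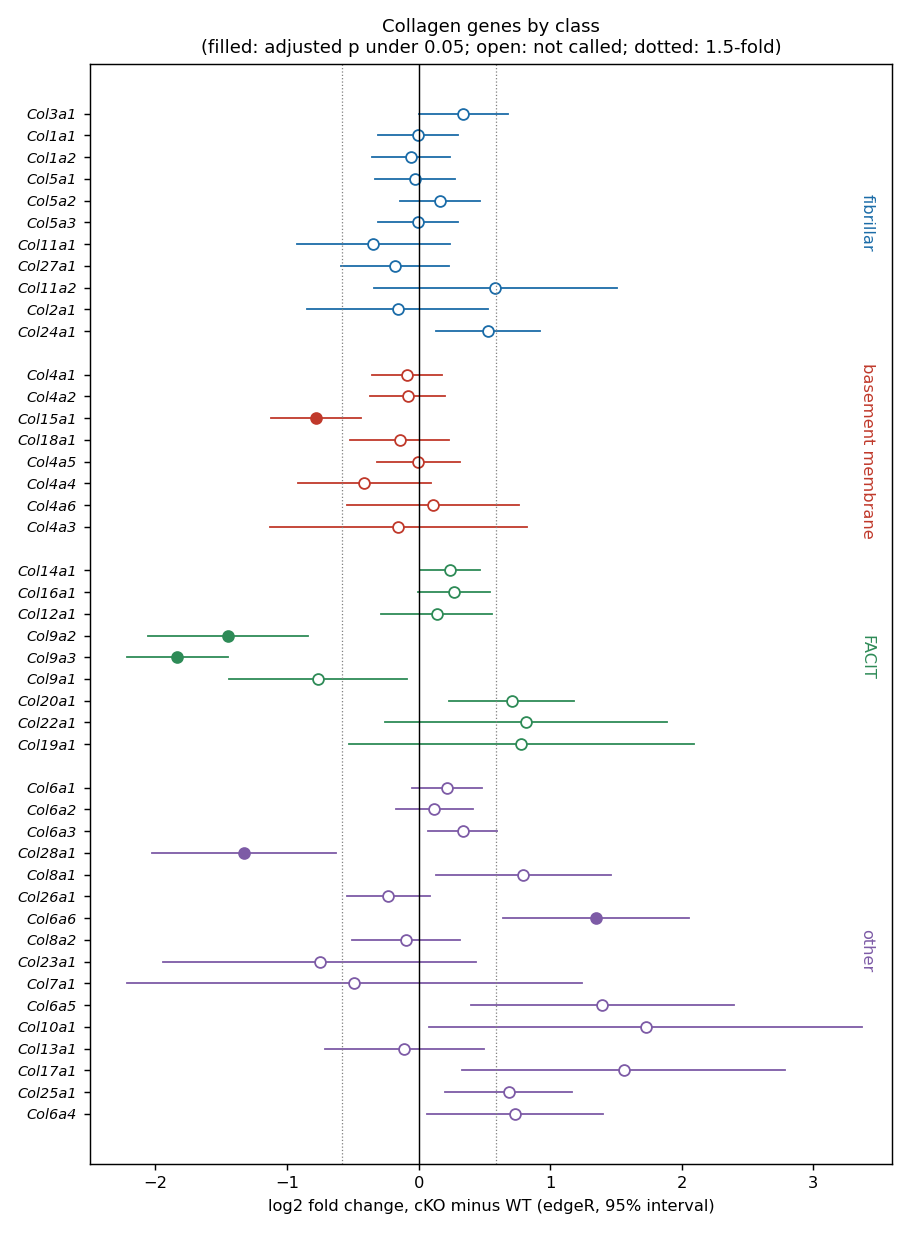
Log2 fold change (cKO over WT) of the 44 collagen genes with 95% intervals, grouped by class; filled points were called at an adjusted p under 0.05. The called genes are Col9a3, Col9a2, Col28a1 and Col15a1 below 0 and Col6a6 above 0, and the fibrillar chains lie between -0.35 and 0.58.

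Summed over the 44 genes, collagen transcripts stood at 45220, 43490 and 43060 CPM in WT and at 51130, 42980 and 50920 CPM in cKO. The ratio of the group means was 1.10, and 1.16 without cKO replicate 2, the library with the lowest sum. As a share of all counts the collagens took 4.28% to 4.54% in WT and 5.35%, 3.81% and 5.45% in cKO. The groups overlapped on both scales. Col3a1, Col1a1 and Col1a2 made up most of this sum, and without them the ratio was 1.03.

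Levels between genes were compared as RPKM, that is, CPM per kilobase of the exonic length in the count table. Col3a1 led with a mean of 1894 RPKM over the 6 libraries, followed by Col1a1 at 1140 and Col1a2 at 596 RPKM. Then came Col6a1 at 246, Col4a1 at 217, Col5a1 at 199 and Col5a2 at 188 RPKM, whose library ranges touch or overlap their neighbours in this order. The lowest were Col6a4 at 0.118 and Col4a3 at 0.0957 RPKM. The order depended on the length used. With the longest coding transcript in place of the exonic length, an alternative chosen after seeing the data, Col1a2 stood at 1385 RPKM and Col1a1 at 1262 RPKM, and Col5a2 at 272 RPKM came before Col6a1 at 263 and Col4a1 at 245 RPKM. The Col1a1 to Col1a2 ratio in WT was 1.87 with the first length and 0.893 with the other.

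**Figure D2:**
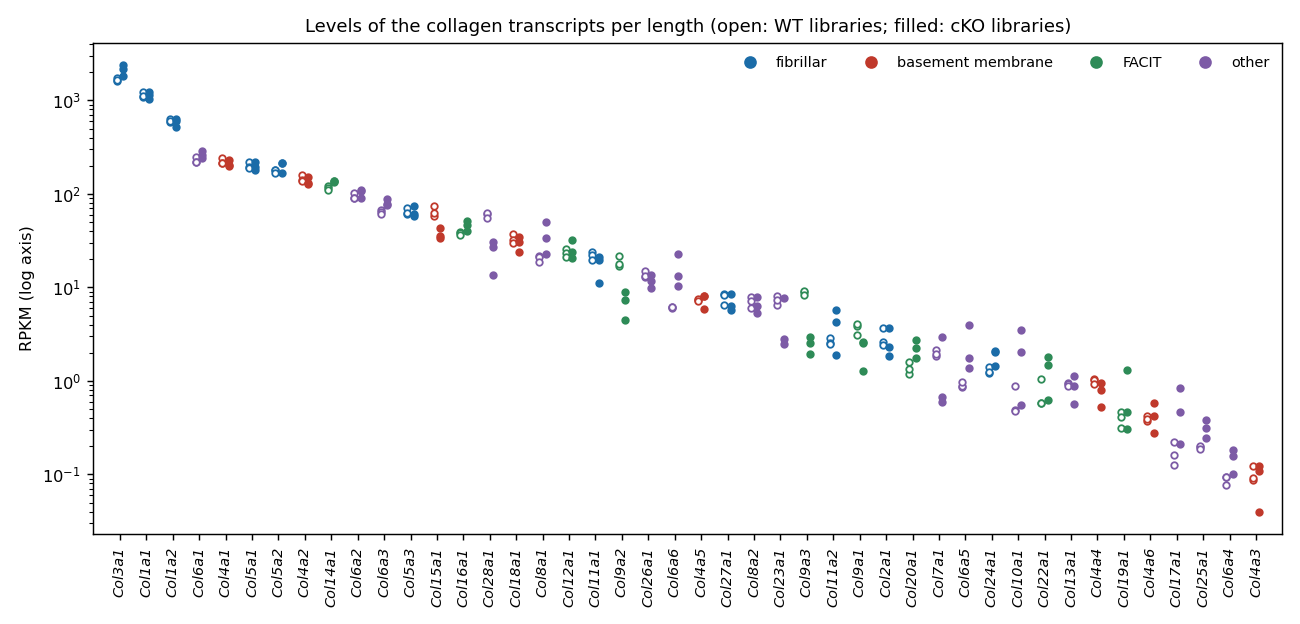
RPKM of the 44 collagen genes in each library on a log axis, ordered by their mean; open points are WT and filled points cKO libraries, coloured by class. Fibrillar Col3a1, Col1a1 and Col1a2 stand above all others, and the 5 called genes average between 5.66 RPKM for Col9a3 and 51.3 RPKM for Col15a1.

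The major fibrillar chains were not called. Col3a1, the chain of type III collagen found with type I in loose tissue, stood at 15985, 16864 and 16394 CPM in WT and at 23460, 17800 and 21070 CPM in cKO. All 3 cKO libraries lay above WT, with cKO replicate 2 nearest to it, and the log2 fold change was 0.34 with a 95% interval from 0.00 to 0.68 (adjusted p = 0.145). Without cKO replicate 2 it was 0.44 and called (adjusted p = 0.00477), and DESeq2 called it with all 6 libraries (adjusted p = 0.0495).

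Col1a1 and Col1a2 encode the chains of type I collagen, the main fibril protein. Col1a1 was at 8064, 7092 and 7306 CPM in WT and at 7512, 6758 and 8156 CPM in cKO, and Col1a2 at 7783, 7339 and 7555 CPM in WT and at 7560, 6429 and 7790 CPM in cKO. Both genes overlapped between the groups, with log2 fold changes of -0.002 and -0.06. Their 95% intervals, from -0.31 to 0.30 and from -0.36 to 0.24, lie within 1.5-fold. The sign of the Col1a1 change turned without WT replicate 1 (0.05) and without cKO replicate 2 (0.06), and that of Col1a2 without cKO replicate 2 (0.02).

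Type V collagen, which nucleates fibrils, has the chains Col5a1, Col5a2 and Col5a3, the last of which is a chain known from Schwann cells. Their log2 fold changes were -0.02, 0.16 and -0.01, and none was called by edgeR with all 6 libraries. Without cKO replicate 2 Col5a2 was called (0.26, adjusted p = 0.0324). Col11a1 and Col11a2, the type XI chains that take the same place in cartilage fibrils, had log2 fold changes of -0.35 and 0.58, each with overlapping groups. Col2a1, the main cartilage fibril chain, was at 22.5 to 33.9 CPM in WT and 17.0 to 33.8 CPM in cKO. Of the remaining fibrillar chains Col27a1 overlapped between the groups (-0.18), whereas Col24a1 was higher in all 3 cKO libraries (0.53, adjusted p = 0.0698) and was called without cKO replicate 2 (0.46, adjusted p = 0.0333) and by DESeq2 (0.0327). Of the 11 fibrillar genes 2 had an unadjusted p under 0.05, and DESeq2 called 2.

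Among basement membrane collagens none of the 6 type IV network chains was called and Col15a1 fell. Col4a1 stood at 1793, 1611 and 1613 CPM in WT and at 1496, 1519 and 1706 CPM in cKO. Its partner Col4a2, transcribed from the opposite strand next to it on chromosome 8, stood at 1060, 925 and 913 CPM in WT and at 875, 850.2 and 1010 CPM in cKO. Both overlapped between the groups, with log2 fold changes of -0.09 (95% interval -0.35 to 0.18) and -0.08 (-0.37 to 0.20). Their ratio per length was 1.54 ± 0.0340 (SD, n = 3) in WT and 1.53 ± 0.0454 in cKO (2-sided exact permutation test, p = 0.9). The minor type IV chains Col4a3, Col4a4, Col4a5 and Col4a6 had log2 fold changes from -0.41 to 0.11, none of them called.

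Col15a1 (ENSMUSG00000028339, chromosome 4 from 47208161 to 47313167 on the plus strand of GRCm38) encodes collagen XV, a proteoglycan that links basement membranes to the fibrils beside them. It stood at 473, 367 and 396 CPM in WT and at 227, 276 and 214 CPM in cKO. All 3 cKO libraries lay below all 3 WT libraries, and the fall of 0.78 on the log2 scale (SE 0.14, 95% interval -1.13 to -0.44, adjusted p = 0.0128) left 0.581 of the WT level. The log2 fold change was -0.90 when cKO replicate 2 was left out. The call was lost without WT replicate 1 (-0.68, adjusted p = 0.0556), WT replicate 3 (-0.82, 0.0551) or cKO replicate 3 (-0.71, 0.0507). The related multiplexin Col18a1, the source of endostatin, overlapped between the groups at 207 to 260.4 CPM in WT and 168 to 245 CPM in cKO (-0.14).

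Among the FACITs the type IX chains Col9a3 and Col9a2 fell, and the other 7 genes, the type IX chain Col9a1 among them, did not pass the edgeR test. Type IX collagen is a trimer of the products of Col9a1, Col9a2 and Col9a3 that decorates type II fibrils in cartilage, and its genes lie on 3 chromosomes. Col9a3 (ENSMUSG00000027570, chromosome 2 from 180597790 to 180622189, plus strand) stood at 34.8, 35.4 and 32.0 CPM in WT and at 9.69, 7.501 and 11.4 CPM in cKO. The lowest WT library was above the highest cKO library. The gene fell by 1.83 on the log2 scale (SE 0.16, 95% interval -2.22 to -1.45, adjusted p = 0.0011), or 3.56-fold. This call held when any of the 6 libraries was left out, with log2 fold changes from -1.98 to -1.69.

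Col9a2 (ENSMUSG00000028626, chromosome 4 from 121039385 to 121055322, plus strand) stood at 67.0, 53.0 and 55.1 CPM in WT and at 27.5, 13.8 and 22.8 CPM in cKO. The groups were again apart, and the gene fell by 1.45 on the log2 scale (SE 0.25, 95% interval -2.06 to -0.84, adjusted p = 0.0124), or 2.73-fold. With cKO replicate 2, its lowest library, left out, the value was -1.22. The call was lost without WT replicate 1 (-1.34, adjusted p = 0.0565).

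Col9a1 (ENSMUSG00000026147, chromosome 1 from 24177610 to 24252684, plus strand) stood at 19.7, 20.4 and 15.6 CPM in WT and at 13.2, 6.46 and 13.0 CPM in cKO. All cKO libraries lay below all WT libraries here too, but the log2 fold change of -0.77 was not called (95% interval -1.44 to -0.09, adjusted p = 0.108). Without cKO replicate 2 it was -0.50 and called (adjusted p = 0.00761), and DESeq2 called it with all 6 libraries (adjusted p = 0.0339). Per length the Col9a1 to Col9a3 ratio was 0.413 ± 0.0372 (SD, n = 3) in WT and 0.853 ± 0.191 in cKO. The 2-sided exact permutation test gave p = 0.1, the smallest that 3 against 3 allows, and 0.2 after adjustment over the 8 chain ratios compared. The ratios of Col3a1 to Col1a1, Col5a1 to Col5a2 and Col6a3 to Col6a2 gave the same 2 values, so this result was not particular to type IX. Summed, the type IX chains stood at 103 to 121 CPM in WT and at 50.4, 27.7 and 47.3 CPM in cKO, a ratio of 0.377.

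**Figure D3:**
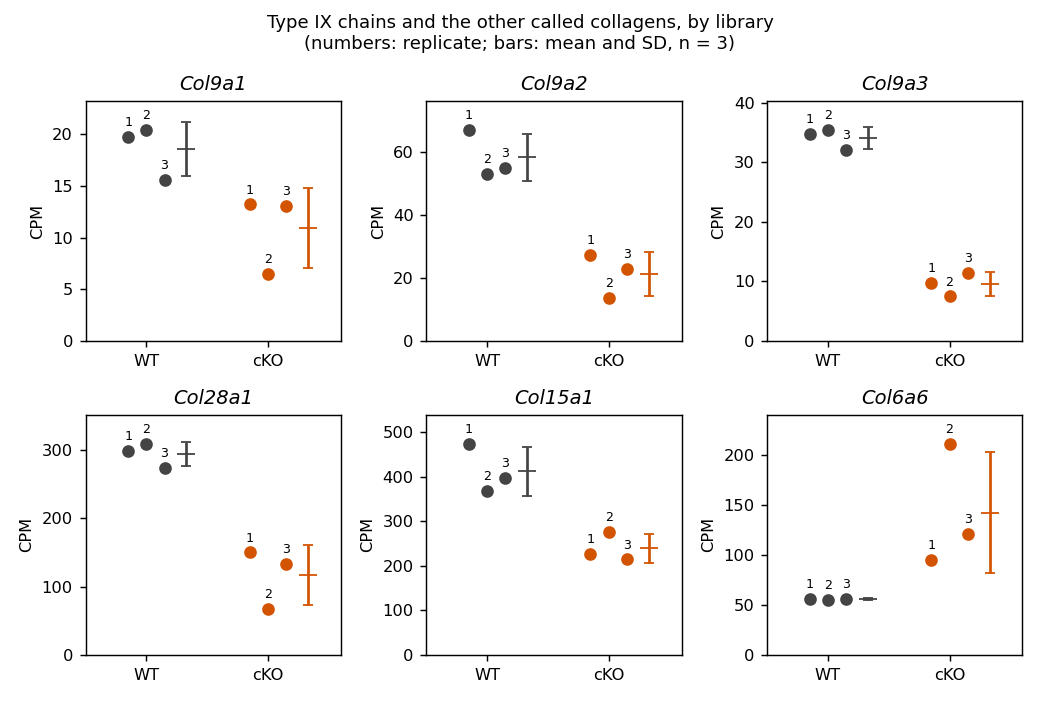
CPM of the 5 called collagens and of Col9a1 in each WT and cKO library, numbered by replicate, with the mean and SD (n = 3) beside each group. WT and cKO libraries do not overlap in any panel, and cKO replicate 2 is the lowest library for the type IX chains and Col28a1 and the highest for Col6a6.

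Col14a1, Col16a1 and Col12a1 had the highest RPKM of the FACITs. Col14a1, a fibril-surface collagen of fibroblasts, stood at 851, 812 and 766 CPM in WT and at 968, 931 and 968 CPM in cKO, above WT in every library (log2 fold change 0.24, adjusted p = 0.133). Col16a1 was at 267, 259 and 245 CPM in WT and at 315, 269 and 345 CPM in cKO, also without overlap (0.27, adjusted p = 0.148). Both were called without cKO replicate 2 (0.26 and 0.36, adjusted p = 0.0312 and 0.00336), and DESeq2 called Col14a1 with all 6 libraries (adjusted p = 0.0402).

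Col12a1, which binds fibrils in tissues under tension, was at 390.0, 352 and 319.9 CPM in WT and at 312, 367 and 489 CPM in cKO (0.14), and its sign turned without cKO replicate 3 (-0.06). The 3 FACIT genes with low counts, Col20a1, Col22a1 and Col19a1, had log2 fold changes of 0.71, 0.81 and 0.78. Col20a1 was apart between the groups, at 6.11 to 8.21 CPM in WT and 8.99 to 14.1 CPM in cKO, and missed the threshold in edgeR (adjusted p = 0.051). It was called without cKO replicate 2 (0.54, adjusted p = 0.017), without the low-count filter (0.0244) and by DESeq2 (0.0121). For Col22a1 and Col19a1 the highest value of any library was that of cKO replicate 2, at 16.7 and 8.90 CPM. With that library left out their log2 fold changes were 0.50 and -0.05, so the sign of Col19a1 turned.

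Type VI collagen forms beaded microfibrils around cells, and its 3 main chains Col6a1, Col6a2 and Col6a3 were not called. Col6a1 was at 1081, 958 and 959 CPM in WT and at 1074, 1154 and 1247 CPM in cKO (0.21), and Col6a2 at 861, 749 and 757 CPM in WT and at 752, 914 and 904 CPM in cKO (0.12). Col6a3 was at 808, 758 and 726 CPM in WT and at 905, 926 and 1059 CPM in cKO. It was the only one of the 3 without overlap, with a log2 fold change of 0.33 (95% interval 0.07 to 0.60, adjusted p = 0.079), and it was called without cKO replicate 2 (0.36, adjusted p = 0.00869) and by DESeq2 (0.0203).

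The other type VI chains, Col6a4, Col6a5 and Col6a6, are encoded by neighbouring genes on chromosome 9 between 105687809 and 106096783, all on the minus strand. Col6a6 (ENSMUSG00000043719, from 105687809 to 105828160) stood at 56.3, 55.1 and 56.1 CPM in WT and at 95.1, 211 and 121 CPM in cKO. The WT libraries were close together and every cKO library lay above them. The gene rose by 1.35 on the log2 scale (SE 0.29, 95% interval 0.64 to 2.05, adjusted p = 0.026), or 2.54-fold. Without cKO replicate 2, its highest library, the change was 0.95 (adjusted p = 5.48e-06). The call was lost without WT replicate 1 (1.35, adjusted p = 0.0998), WT replicate 2 (1.32, 0.0954), WT replicate 3 (1.34, 0.102) or cKO replicate 3 (1.45, 0.0531), and without the low-count filter (1.32, 0.0738).

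Col6a5 was at 8.15, 8.36 and 9.06 CPM in WT and at 37.7, 13.0 and 16.5 CPM in cKO, and Col6a4 at 0.662 to 0.807 CPM in WT and 0.861 to 1.55 CPM in cKO. EdgeR called neither, with log2 fold changes of 1.40 (adjusted p = 0.0645) and 0.73 (0.116), although the groups did not overlap, and DESeq2 called Col6a5 (adjusted p = 0.00137). In Col6a5 and Col6a4 cKO replicate 1 was the highest library, whereas in Col6a6 it was cKO replicate 2. All 6 type VI genes had positive log2 fold changes, with a median of 0.53, as had 10199 of the 18775 genes tested, and 1 of the 6 was called. Their summed level, mostly that of Col6a1, Col6a2 and Col6a3, was 1.20 times that of WT. It was 2508 to 2814 CPM in WT and 2865 to 3348 CPM in cKO.

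Col28a1 (ENSMUSG00000068794, chromosome 6 from 7997808 to 8192617, minus strand) encodes collagen XXVIII, a protein of peripheral nerve that is known from nodes of Ranvier and from around nonmyelinating Schwann cells. It stood at 299, 308 and 274 CPM in WT and at 149.9, 67.2 and 134 CPM in cKO. All 3 cKO libraries lay below WT, with cKO replicate 2 far below the other 2. The gene fell by 1.33 on the log2 scale (SE 0.29, 95% interval -2.03 to -0.63, adjusted p = 0.0261), or 2.51-fold. The change was -1.05 when cKO replicate 2 was left out (adjusted p = 1.05e-06). The call was lost without WT replicate 1 (-1.32, adjusted p = 0.0925), WT replicate 2 (-1.30, 0.0926), WT replicate 3 (-1.38, 0.0801) or cKO replicate 3 (-1.44, 0.0624), and without the low-count filter (-1.34, 0.0912).

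Of the remaining collagens, edgeR called none with all 6 libraries, while DESeq2 called Col8a1, Col10a1, Col17a1 and Col25a1 higher (adjusted p = 0.0169, 0.0137, 0.0153 and 0.0318). Col8a1, a short-chain network collagen of vessels, was at 170.1, 167 and 145 CPM in WT and at 394, 179 and 266 CPM in cKO, apart between the groups (0.80, adjusted p = 0.0946). Its partner chain Col8a2 overlapped between the groups (-0.09). Col10a1, a chain of hypertrophic cartilage, was at 1.51 to 2.74 CPM in WT and at 1.73, 6.35 and 11.03 CPM in cKO (1.73, adjusted p = 0.131). The bone genes Ibsp and Dmp1 were high in those same libraries, at 1.09, 14.6 and 22.0 CPM and at 0.182, 2.58 and 5.23 CPM in cKO replicates 1 to 3, and their part in the Col10a1 values was not tested.

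Col7a1 and Col23a1 split the cKO libraries. Col7a1, the anchoring fibril collagen of skin, was at 21.9, 19.1 and 19.8 CPM in WT and at 6.08, 30.5 and 6.89 CPM in cKO. Col23a1, a transmembrane collagen, was at 46.8, 36.8 and 42.3 CPM in WT and at 14.1, 44.5 and 16.3 CPM in cKO. In both, cKO replicates 1 and 3 lay below every WT library and cKO replicate 2 lay within or above the WT range. The log2 fold changes were -0.49 and -0.75 with all 6 libraries and -1.65 and -1.47 without cKO replicate 2, where both were called (adjusted p = 3.24e-07 and 7.88e-07). Skeletal muscle markers were high in the same library, at 74710 CPM summed, against 5013 and 5809 CPM in the other cKO libraries. Their part in these values was not tested.

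Of the other transmembrane collagens Col17a1 stood at 0.72 to 1.29 CPM in WT and at 1.22, 4.85 and 2.66 CPM in cKO (1.56, adjusted p = 0.0808), Col25a1 at 2.41 to 2.62 and 3.16 to 4.95 CPM (0.69, 0.0588) and Col13a1 at 4.05 to 4.36 and 2.58 to 5.14 CPM (-0.11). Col26a1, a collagen with short helical stretches, overlapped between the groups (-0.23). EdgeR called none of these, whereas DESeq2 called Col17a1 and Col25a1, as given above.

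Leaving out cKO replicate 2 raised the number of called collagens to 19 of 44, 12 higher and 7 lower, while 35.4% of 19256 genes were then called. The 7 lower were the 4 called before and Col9a1, Col7a1 and Col23a1. The 12 higher were Col6a6, Col3a1, Col5a2, Col24a1, Col14a1, Col16a1, Col20a1, Col6a3, Col6a4, Col8a1, Col17a1 and Col25a1. Their log2 fold changes ran from 0.26 for Col14a1 to 1.03 for Col8a1. Without cKO replicate 1 there were 12 called collagens, where 16.3% of all genes were called. Without WT replicate 1, WT replicate 2, WT replicate 3 or cKO replicate 3 there were 1, 3, 2 and 2, where 6.63%, 6.76%, 6.45% and 10.5% of all genes were called. DESeq2 called 16 with all 6 libraries, where it called 24.8% of all genes.

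**Figure D4:**
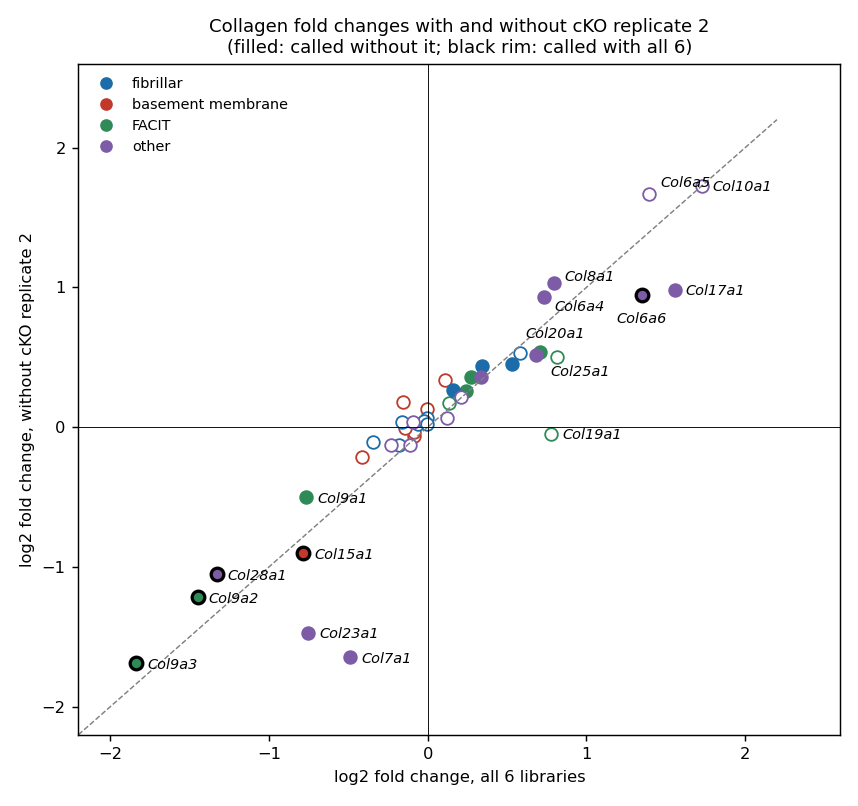
Log2 fold change (cKO over WT) of each collagen with all 6 libraries (x axis) and without cKO replicate 2 (y axis), coloured by class; the dashed line marks equal values. Filled points were called without that library and points with a black rim with all 6; Col7a1 and Col23a1 lie far below the line, at -1.65 and -1.47 on the y axis.

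Levels of some cell type markers moved together with several collagens, while other marker lists changed little. The counts called by edgeR in this paragraph and the next stand against 18.8% of all genes called (8.55% higher and 10.3% lower). Of 12 Schwann lineage markers 7 fell and 1 rose, and none of these markers was at 0. Their summed level was lowest in cKO replicate 2, the library in which Col9a2, Col9a3, Col9a1 and Col28a1 were lowest. In whole-nerve RNA, fewer cells of a type and less RNA per cell cannot be told apart. Of 11 fibroblast markers 6 rose (Dpp4, Clec3b, Pi16, Cd34, Sfrp2 and Mfap5) and 0 fell. The list summed to 1471 to 1717 CPM in WT and 2373 to 3033 CPM in cKO. Pdgfra, Ly6a, Ccl11, Sox9 and Osr2 were not called and overlapped between the groups. Their log2 fold changes were 0.19, 0.80, -0.33, -0.39 and -0.03, so the rise did not extend to the whole list. Of 15 skeletal muscle markers 0 were called by edgeR and 1 had an unadjusted p under 0.05, and DESeq2 called 1 of the 6 to which it gave an adjusted p. Their summed level was 4030 to 5649 CPM in WT and 5013 to 74710 CPM in cKO. No fibroblast or muscle marker was at 0 in any library. Among 7 perineurial markers 2 rose and 1 fell, and their sums overlapped (333.5 to 357.4 CPM in WT, 227.2 to 450.3 CPM in cKO). Among 10 endothelial markers 1 rose and 0 fell, with sums of 641 to 673 CPM in WT and 724 to 820.5 CPM in cKO. Among 9 pericyte and smooth muscle markers 0 rose and 1 fell. The sums of this list overlapped, at 926 to 1078 CPM in WT and 918 to 2872 CPM in cKO. The highest sum was that of cKO replicate 2, the library high in muscle markers, where Des alone was at 1795 CPM.

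Cartilage and skeletal markers are relevant to the type IX chains and to Col2a1, Col10a1 and Col11a2. Of 10 cartilage markers 6 were tested, 1 rose and 2 fell (Matn4 and Cnmd), and the sum was 29.9 to 32.97 CPM in WT and 16.2 to 31.3 CPM in cKO. Matn1, Matn3, Snorc and Ucma, the 4 that did not pass the low-count filter, were at or near 0 in both groups, with at most 0.629 CPM in any library. Acan, Hapln1, Comp and Chad were present in every library, at 0.274 to 3.49 CPM in WT and 0.334 to 7.86 CPM in cKO, and Hapln1 was the marker that rose. Matn4 took most of the sum, at 22.4 to 24.7 CPM in WT and 6.17 to 12.5 CPM in cKO, so the sum mainly follows this gene. Acan, Hapln1, Comp and Chad went the other way, with log2 fold changes of 0.49, 1.03, 0.84 and 0.72. Each was highest in cKO replicate 3. Of 10 tendon and bone markers 1 rose (Mkx), and the sum was 626 to 661 CPM in WT and 471 to 742 CPM in cKO. Thbs4 took most of this sum, at 600 to 631 CPM in WT and 391 to 689 CPM in cKO, so the sum mainly follows this gene. Its log2 fold change was -0.09, whereas those of the other 9 were positive. Of 9 macrophage markers 7 rose, and of 7 erythroid markers 4 rose. Both sums were highest in cKO replicate 1, at 1135 and 21870 CPM, which was also the highest library for Col8a1 and Col6a5. The part of all these marker lists in the collagen changes was not tested.

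**Figure D5:**
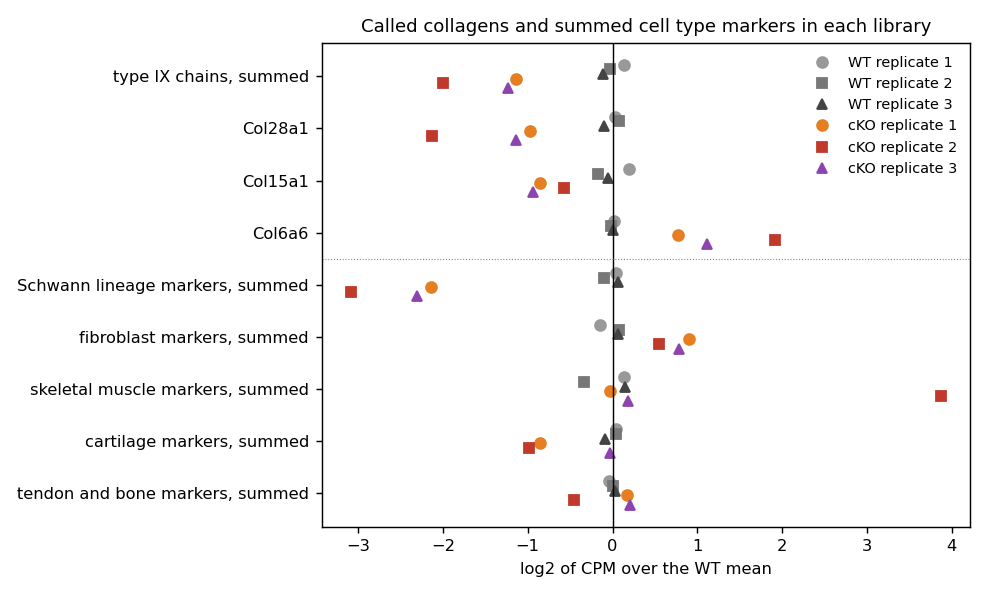
Log2 ratio of CPM to the WT mean in each of the 6 libraries, for the summed type IX chains, Col28a1, Col15a1 and Col6a6 (above the dotted line) and for summed marker lists (below it). The type IX chains, Col28a1 and the Schwann lineage markers are all lowest in cKO replicate 2, while Col15a1 is lowest in cKO replicate 3, and muscle markers are high in cKO replicate 2 alone.

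The promoters of called collagens are shown because these genes moved in the same comparison. Windows of 250 bases before the RefSeq start (GRCm38.p6) were searched on both strands, and 35 of the 44 collagens and 4 of the 5 called genes had an entry. Stretches inside the counted gene model are not printed. Capitals mark the SOX core letters ACAAAG or ACAATG in Col28a1 and the GC box letters GGGCGG or its reverse complement CCGCCC in Col6a6.
Col28a1 chr6:8192618-8192867 (-): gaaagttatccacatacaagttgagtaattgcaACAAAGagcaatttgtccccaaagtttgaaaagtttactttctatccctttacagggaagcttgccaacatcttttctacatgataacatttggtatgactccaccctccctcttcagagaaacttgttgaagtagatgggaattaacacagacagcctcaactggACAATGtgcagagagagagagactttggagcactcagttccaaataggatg
Col15a1 chr4:47207762-47208011 (+): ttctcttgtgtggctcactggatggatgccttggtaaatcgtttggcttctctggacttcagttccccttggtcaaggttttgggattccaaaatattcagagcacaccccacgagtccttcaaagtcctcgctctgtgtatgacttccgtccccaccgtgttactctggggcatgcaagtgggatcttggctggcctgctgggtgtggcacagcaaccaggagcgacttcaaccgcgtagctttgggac
Col9a2 chr4:121039316-121039384 (+): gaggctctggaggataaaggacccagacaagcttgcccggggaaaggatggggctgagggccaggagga
Col6a6 chr9:105828161-105828335 (-): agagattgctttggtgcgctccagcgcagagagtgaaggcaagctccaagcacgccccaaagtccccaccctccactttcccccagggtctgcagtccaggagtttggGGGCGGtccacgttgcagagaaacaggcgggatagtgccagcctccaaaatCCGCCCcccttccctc

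In the Col28a1 window ACAAAG lay 217 bases and ACAATG 51 bases before the start. ACAATG occurred in 10.7% of the 32851 windows of all genes and in 1 of the 35 collagens, Col28a1. ACAAAG occurred in 16.5% of windows and in 4 of the 35. The GC boxes of Col6a6 lay 142 and 91 bases before the start, and those of Col9a2 14 and 26 bases before it, in the part not printed. The GC box was present in 32.7% of all windows and in 21 of the 35 collagens. The searched letters TATAAA (12.4% of windows), CCAAT (33.8%) and the EGR core GTGGGCG (7.02%) were found in 5, 13 and 7 of the 35, and none of these searched motifs was found in the Col15a1 window. The percentages over all genes are per window, and a gene can have several windows. A collagen was counted if any of its windows matched, so the 2 kinds of share are not directly comparable. A match is a stretch of letters and no evidence of binding.

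The machinery that makes, exports and anchors collagen changed gene by gene. The counts of called genes below stand against the 18.8% of all genes that were called (8.55% higher and 10.3% lower), and those without a library against the shares given above for the same fits. Of 18 genes for chain modification and folding 3 rose and 1 fell (median 0.03). P3h2, a prolyl 3-hydroxylase that acts on type IV collagen, was at 4.54 to 5.45 CPM in WT and 9.94 to 13.1 CPM in cKO, and it rose by 1.25 on the log2 scale (adjusted p = 0.00309). P4ha2, a subunit of prolyl 4-hydroxylase, rose by 0.65 (adjusted p = 0.013), whereas Plod2, a lysyl hydroxylase, fell by 0.43 (adjusted p = 0.0128). The collagen chaperone Serpinh1 overlapped between the groups at 1215 to 1257 CPM in WT and 1034 to 1222 CPM in cKO. Of 10 genes for procollagen export 0 were called by edgeR, 0 had an unadjusted p under 0.05 and DESeq2 called 0.

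Of 14 genes for procollagen processing and cross-linking 5 rose and 3 fell (median 0.31). Loxl1, a lysyl oxidase, rose by 0.69 (adjusted p = 0.00291), from 97.1 to 110.0 CPM in WT to 164 to 170.5 CPM in cKO. The tolloid proteases Tll1 and Tll2 fell, with log2 fold changes of -1.16 and -2.47 (adjusted p = 0.00889 and 0.0119), while the related Bmp1 was at 231 to 233 CPM in WT and 269.8 to 292 CPM in cKO and was not called (0.29, adjusted p = 0.052). Without WT replicate 1, 2 or 3 the number called was 1, 2 and 2. It was 11 without cKO replicate 2 and 5 without cKO replicate 3.

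Of 16 collagen-binding matrix proteins 7 rose and 1 fell (median 0.49). The fibril-binding proteoglycans Aspn and Fmod rose by 0.89 and 0.72 (adjusted p = 0.0108 and 0.00368), and Ogn fell by 0.66 (adjusted p = 0.00915). The number called was 13 without cKO replicate 2, 5 without cKO replicate 1, 3 without cKO replicate 3 and 2 without any 1 WT library.

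Of 14 collagen receptors and uptake genes 13 were tested, 4 rose and 3 fell (median 0.16). The adhesion receptors Adgrg6, known to bind type IV collagen, and Adgrg1, known to bind type III collagen, fell, with log2 fold changes of -1.07 and -0.85 (adjusted p = 0.00926 and 0.00674). Adgrg6 was at 105 to 116 CPM in WT and 37.8 to 61.8 CPM in cKO. The integrin chain Itga11 rose by 1.15 and Itga2 fell by 0.53 (adjusted p = 0.0085 and 0.0135). The hyaluronan and collagen receptor Cd44, the discoidin receptor Ddr2 and the collagen uptake receptor Mrc2 rose, with log2 fold changes of 0.70, 0.44 and 0.50 (adjusted p = 0.00712, 0.0217 and 0.0078). The number called fell to 3, 4 and 3 without WT replicates 1, 2 and 3, and it was 10 without cKO replicate 2. For modification and folding it was 1 without any 1 WT library and 7 without cKO replicate 2, and for export 2 without cKO replicate 2.

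Reads of overlapping genes cannot be separated here because counting did not use strand. Of the called genes Col9a3 shared 6.07% of its exonic bases with Tcfl5 on the opposite strand, Col6a6 shared 0.69% and Col15a1 0.22% with a gene on the other strand, and Col9a2 and Col28a1 shared none. Of the 50-base words of Col9a3, 4.87% also occurred in Tcfl5, and of those of Col6a6, 3.7% occurred in other genes, among them Col6a5.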

How the data were processed

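RNA of sciatic nerve was sequenced in 3 WT and 3 cKO libraries, grouped by the sample titles. The authors deposited 1 table of unnormalized counts. Per the file headers, featureCounts 1.6.1 counted fragments over exons of Ensembl GRCm38 release 95 requiring both ends aligned and mapping quality of at least 20, without a strand option. Subread 2.0 and DESeq2 1.3 are named in the submitters' processing notes, and aligner settings were not given in the sources used here. Of 54838 identifiers 54723 had a symbol, from a reference table, and 0 rows lacked an identifier.

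From these counts edgeR 4.0.16 (R 4.3.3) fitted the quasi-likelihood F test, 2-sided, with filterByExpr (minimum count 10), TMM factors, robust dispersions and 4 residual degrees of freedom. P-values were Benjamini-Hochberg adjusted over 18775 genes and called under 0.05. Standard errors and 95% intervals were derived from the F statistic. CPM and RPKM were computed here. DESeq2 1.42.0, DESeq2 size factors, no filter, a replicate block and each library left out were the alternatives. The code was tested on simulated data.

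Each library counted as 1 replicate. Within groups, libraries were further apart than counting error allows (chi-square over its degrees of freedom, 8.26 to 14.8 in WT and 28.8 to 312 in cKO). The 2 pairs with cKO replicate 2 gave 312 and 284. This spread can be technical and does not show that the libraries came from separate animals. Total counts per library, given above, set the counting precision.

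The collagens, classes and gene lists were chosen with earlier results of these data known. Named were every called collagen, the 3 of highest mean RPKM in each class, and up to 3 genes of smallest p in each pathway list. The other collagens, Serpinh1, Bmp1, Adgrg6, Itga2, Itga11, Ddr2 and the marker genes were named after their values were seen. Ratios of chains were compared by exact permutation tests.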

Additional observations from a re-analysis of the deposited data

How the results depend on the processing

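All 5 collagen calls held with DESeq2, with DESeq2 size factors and with the replicate block. Col28a1 and Col6a6 were lost without the low-count filter (other collagens called, 0) and Col20a1 was gained (adjusted p = 0.0244), and basement membrane collagens had 0 calls when collagens XV and XVIII were counted among the others. With DESeq2, 16 collagens were called, 2 of them fibrillar, 5 FACIT and 8 other. The replicate block gave 1852 called genes in place of 3534, 3 in place of 8 for processing and cross-linking and 3 in place of 8 for binding proteins. Plod2 (adjusted p = 0.0601) and Ogn (0.0558) were lost among the pathway genes named for their small p. Of the receptors 3 were called higher in place of 4. Cd44 and Mrc2 were among these 3, so at least 1 of Itga11 and Ddr2 was lost too. Same-numbered libraries did not pair (correlations of deviations -0.223, -0.231 and -0.0797), so the block is given only here.

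Leaving out each library gave 1246 to 6823 called genes, 1 to 19 collagens, 0 to 3 fibrillar, 0 to 1 basement membrane, 1 to 6 FACIT and 0 to 9 other collagens. For the pathway lists it gave 1 to 7 for modification and folding, 0 to 2 for export, 1 to 11 for processing, 2 to 13 for binding proteins and 3 to 10 for receptors. The summed collagen ratio stayed between 1.07 and 1.16. Signs turned for 12 collagens, none of them called by edgeR with all libraries. The largest turn was that of Col19a1 without cKO replicate 2 (0.78 to -0.048), and Col4a3, Col4a5, Col4a6, Col5a1, Col5a3, Col2a1, Col8a2 and Col13a1 turned at values from -0.178 to 0.184. Among those chosen by level, signs turned for Col12a1 without cKO replicate 3 (range over the libraries left out -0.062 to 0.271), for Col1a1 without WT replicate 1 (0.048) and cKO replicate 2 (0.064; range -0.07 to 0.064), and for Col1a2 without cKO replicate 2 (range -0.112 to 0.021). Among the pathway genes named for their small p, Plod2, P4ha2, Mrc2, Ogn, Aspn, Tll1 and Tll2 lost their call without 1 or more WT libraries. The adjusted p was then from 0.0515 to 0.0715. Without WT replicate 1 the 3 receptor genes called were Cd44, Mrc2 and Adgrg1. Adgrg6, Itga2, Itga11 and Ddr2 thus lost their call in that fit as well. The causes of these shifts were not tested. The smallest called collagen change with all libraries was that of Col15a1; all 44 passed the low-count filter, but low-count chains had wide intervals (Col4a3, about 1.01 CPM in WT, -1.13 to 0.82).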
